A study of Mus musculus with 4 samples.

Results

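Indian hedgehog and parathyroid hormone-related protein form a feedback loop that sets how long cartilage cells proliferate before they enlarge. Chondrocytes that leave the proliferating pool secrete Ihh, which binds Patched 1 (Ptch1) on nearby cells and so frees Smoothened (Smo) to act on the Gli transcription factors. Cells toward the joint surface secrete the PTHrP peptide, made by Pthlh, and its receptor Pth1r on chondrocytes delays their enlargement. Ptch1, Gli1 and Hhip are textbook hedgehog target genes, and the Ptch1 and Hhip proteins also bind the ligand and limit its spread.

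The 9 genes described here are the ligands Ihh and Pthlh, the receptors Pth1r, Ptch1 and Smo, the transcription factors Gli1, Gli2 and Gli3, and the hedgehog-binding protein Hhip. They were taken by name from the 32285 genes in the count tables, and all 9 were found. None of them is a gate marker, but Ihh was seen in glial-gated cells, along with Col2a1, when the order of the gates was chosen, so that choice was not blind to it.

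The study excised presumptive knee joint regions from mouse hindlimb cartilage and counted transcripts of single cells by their molecular barcodes (UMIs) at the 3′ end. Each of its 4 conditions has 1 library: an E13.5 control without Cre, an E14.5 control without Cre, an E14.5 library labelled Prx1cre;Glut1f/f;Glut3f/+, and an E14.5 library labelled Prx1cre;Glut1f/f;Glut3f/f, called DCKO. Values of the 4 libraries are given in that order throughout. Glut1 and Glut3 are the glucose transporters encoded by Slc2a1 and Slc2a3, and Prx1Cre recombines in limb mesenchyme, which gives rise to cartilage, perichondrium and connective tissue but not to blood, endothelium or muscle fibres. The deposited counts held 100344565, 84188147, 97110697 and 91574038 UMIs. Kept were cells whose gene number lay between 200 and 6000 and whose mitochondrial UMIs made up no more than 10%, which left 12446, 9305, 11264 and 11305 cells with a median of 6176.5, 7279, 6757 and 6379 UMIs. Any 2 libraries shared between 24 and 37 cell barcodes. The number of embryos behind a library is not in the labels. With 1 library per condition there is no replicate error and no test, and every interval below is a 95% interval of counting error only.

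Of the transporter genes, Slc2a1 goes against the mutant labels at the level of UMIs. Slc2a1 stood at 48.1, 64.7, 339 and 428 CPM (the UMIs of a gene scaled to a common total) over all kept cells, so it was higher, not lower, in both libraries labelled as Glut1 deleted. In prehypertrophic-like cells it reached 537 CPM in the DCKO library against 94.4 CPM in the E14.5 control, 5.68-fold more (5.18 to 6.24). Whether the counted 3′ tag lies in the deleted part of the gene is not given in the sources used here. Slc2a3 was sparse, at 5.13, 3.38, 4.32 and 2.70 CPM over all kept cells, lowest in the DCKO library. In matrix-rich chondrocyte-like cells it stood at 5.37, 2.71, 4.14 and 1.26 CPM, again lowest in DCKO, and in fibroblast-like cells at 7.60, 6.72, 4.79 and 15.6 CPM, highest in DCKO.

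The libraries also differ in sex. Xist, expressed from the inactive X chromosome, stood at 790.1, 0.202, 986 and 888 CPM, and 15.4%, 65.8%, 0% and 0% of kept cells carried UMIs of Y-linked genes without Xist. The E14.5 control thus holds male cells, both mutant libraries hold female cells, and the E13.5 control holds cells of both sexes. At E14.5 sex and genotype cannot be told apart, and between the controls sex moves with age. Within the E13.5 library, prehypertrophic-like cells with Xist alone and those with Y-linked UMIs alone (372 and 78 cells) had 514 and 464 CPM of Ihh, 414 and 386 CPM of Pth1r, and 337 and 404 CPM of Ptch1. Of these 3 genes, Ptch1 alone differed beyond counting error, with a log2 ratio of -0.26 (-0.42 to -0.09), and it was also lower in Xist cells of the matrix-rich class, at 285 against 341 CPM. In immature cells Ihh was higher with Xist, at 17.1 against 9.18 CPM (log2 0.90, 0.14 to 1.75), and Ptch1 lower (log2 -0.21).

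Cells were sorted into classes by detected marker genes, so each class is a gated range along a continuum and not a proven cell type. Prehypertrophic-like cells are chondrocytes with at least 3 of 8 markers of prehypertrophy or hypertrophy (Col10a1, Panx3, Mef2c, Alpl, Ibsp, Runx3, Cd200, Spp1). These cells also carry at least 5 of 8 matrix genes. They numbered 517, 283, 452 and 419, of which 255, 215, 257 and 280 sat exactly at the gate, while 430, 639, 790 and 904 other chondrocytes missed it by 1 marker. Matrix-rich chondrocyte-like cells, with at least 5 of 8 matrix genes such as Matn1 and Acan, numbered 1031, 4276, 4069 and 4919. The remaining chondrocytes, called immature, numbered 1403, 770, 1227 and 2147. They carry fewer than 5 matrix genes and can hold 3 or more prehypertrophy markers. Interzone-like cells with Gdf5 and either Sfrp2 or Osr2 numbered 2269, 1138, 1286 and 612, of which 861, 591, 718 and 436 held only 1 Gdf5 UMI. Perichondrial-like cells numbered 240, 107, 188 and 118. Their median cell also carried 4, 5, 3 and 4 of 10 chondrocyte markers, and the median interzone-like cell 6, 6, 7 and 7, so these classes are not free of chondrocyte RNA.

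Depth and marker content differ between libraries inside the prehypertrophic-like gate. The median cell there held 11553, 18756, 18053.5 and 16042 UMIs, and the 8 gate markers summed to 1326, 753, 1136 and 748 CPM, led by Mef2c at 707, 300.3, 437 and 299 CPM. The E13.5 library therefore has the shallowest cells and the highest marker level, and the E14.5 control and DCKO libraries have nearly equal marker sums. For depth, an alternative that gates on counts thinned to 4000 UMIs per cell is given where it moves a result.

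Ihh (ENSMUSG00000006538, chr1:74945315-74951672 on the minus strand, GRCm38), the hedgehog ligand of cartilage, is concentrated in the prehypertrophic-like class. Its level there was 493, 140.3, 168 and 159 CPM, against 92.7, 8.19, 10.5 and 17.6 CPM in matrix-rich, 14.9, 1.42, 2.89 and 3.05 CPM in immature and 2.98, 1.08, 1.38 and 2.90 CPM in interzone-like cells. The order prehypertrophic-like, matrix-rich, immature held in all 4 libraries with no overlap of intervals, and below the immature class neighbours overlapped in the 3 libraries of E14.5. The fold of prehypertrophic-like over matrix-rich cells was 5.32 (4.93 to 5.74), 17.1 (15.03 to 19.6), 16.1 (14.4 to 18.0) and 9.05 (8.27 to 9.90), smallest at E13.5 and, within E14.5, smallest in the DCKO library. Although they are few, prehypertrophic-like cells carried 72.6%, 68.5%, 73.5% and 56.1% of all Ihh UMIs of their library, and matrix-rich cells 18.9%, 29.3%, 21.9% and 40.7%.

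Among prehypertrophic-like cells 88.6%, 57.6%, 62.4% and 63.0% held an Ihh UMI, and 54.3%, 19.3%, 22.3% and 22.8% would at 2000 UMIs per cell, with no cell left out. Classes outside cartilage give the comparison, whether their Ihh comes from free RNA or from mixed droplets, which was not tested. Muscle-like cells held an Ihh UMI in 4.28%, 0.426%, 1.91% and 2.20% of cells at medians of 10187, 13725, 13063 and 10443 UMIs, erythroid-like cells in 3.45%, 0%, 4.48% and 2.38%, and macrophage-like cells in 2.94%, 0%, 1.19% and 0%. Immature chondrocytes held one in 6.77%, 0.779%, 0.815% and 1.54% of cells, which in both mutant libraries is below the share in the deeper muscle-like cells. Its level there was nonetheless above that of cells with Sfrp2 but no Gdf5 in both mutant libraries, at 2.89 and 3.05 CPM against 0.671 and 0.171 CPM with intervals apart. It was below muscle-like cells at 6.19 and 5.21 CPM and erythroid-like cells at 18.9 and 7.44 CPM. Of these higher levels, only the erythroid-like one of the Prx1Cre;Glut1f/f;Glut3f/+ library has an interval apart from that of immature cells. In the E14.5 control the immature level rests on 7 UMIs. In matrix-rich cells the share was 30.6%, 5.26%, 7.30% and 10.1%, above muscle-like cells in every library, though the matrix-rich level of the Prx1Cre;Glut1f/f;Glut3f/+ library, 10.5 CPM, is not above its erythroid-like level.

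**Figure D1:**
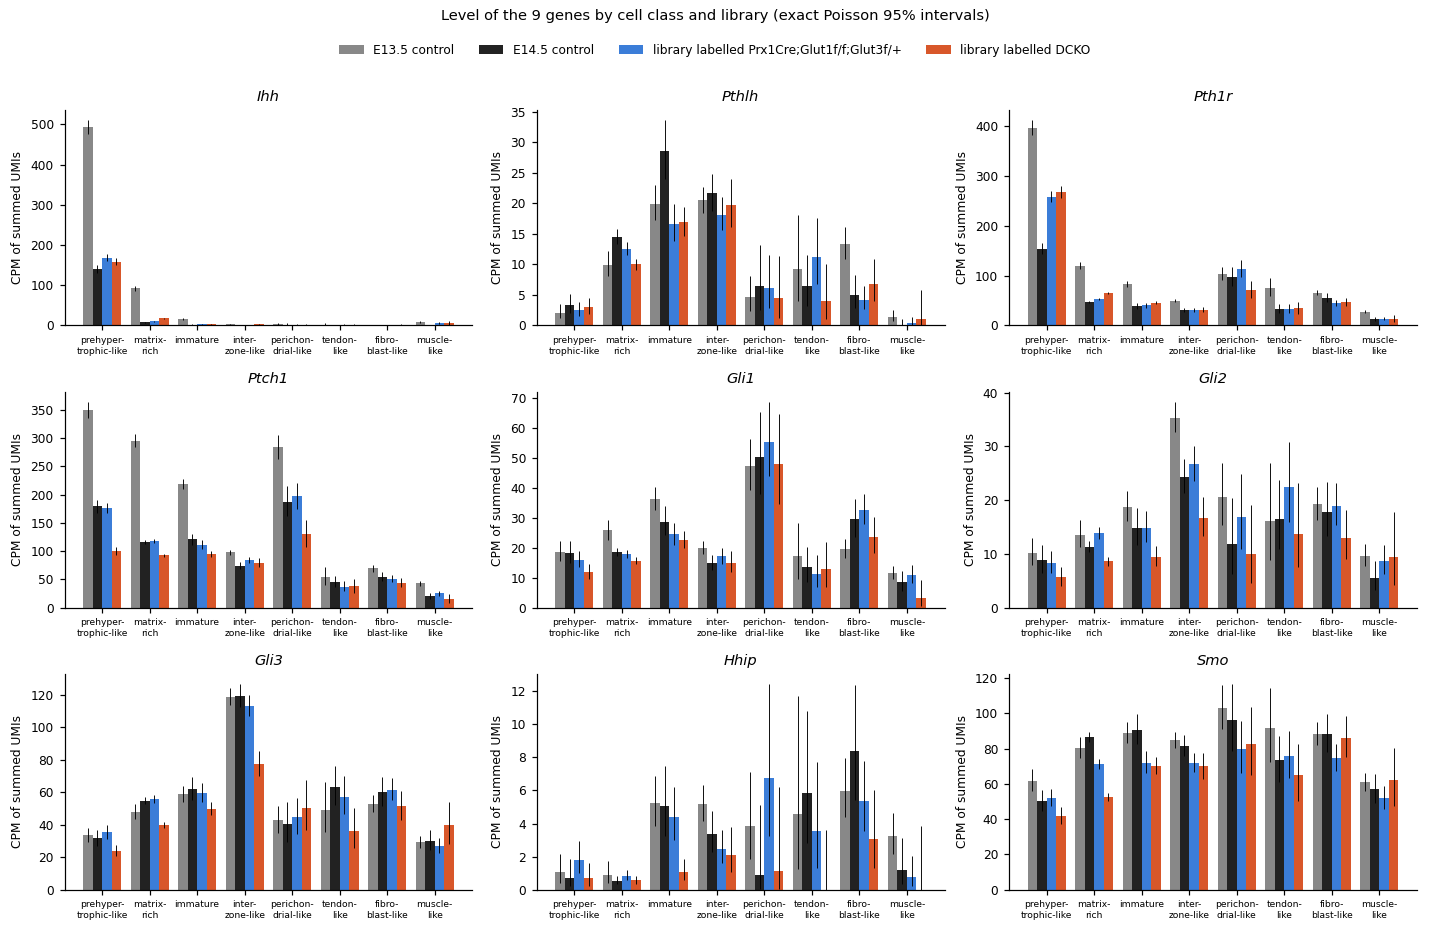
Levels of the 9 genes in CPM of summed UMIs by cell class, with 1 bar per library and lines for 95% counting intervals; each gene has its own axis. Ihh and Pth1r peak in prehypertrophic-like cells, and Gli2 and Gli3 in interzone-like cells.

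Ihh rises steeply with the number of prehypertrophy markers a chondrocyte shows. At 0 markers it stood at 6.37, 3.52, 3.86 and 5.09 CPM, at 2 markers at 123, 18.7, 19.8 and 34.6 CPM, and at 5 or more at 548, 255, 344 and 304 CPM. The increase with marker number is present in every library. Deeper cells show more markers: the median cell held 5822, 6885, 6353 and 5978 UMIs at 0 markers and 14297.5, 20079, 17690 and 19895 at 5 or more, a bin with 88, 26, 91 and 49 cells.

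Pthlh (ENSMUSG00000048776, chr6:147252101-147264183, minus strand), the source of PTHrP, has the opposite pattern along the chondrocyte series. Its level was 20.5, 21.6, 18.2 and 19.7 CPM in interzone-like cells and 19.9, 28.5, 16.6 and 17.0 CPM in immature chondrocytes, then 9.98, 14.53, 12.5 and 10.02 CPM in matrix-rich and 2.12, 3.31, 2.52 and 3.02 CPM in prehypertrophic-like cells. Prehypertrophic-like cells were lowest of the 8 mesenchymal classes in every library. Interzone-like and immature cells did not differ beyond their intervals in any library, and in the Prx1Cre;Glut1f/f;Glut3f/+ library cells with Sfrp2 but no Gdf5 were level with them at 18.9 CPM. Interzone-like over prehypertrophic-like cells the fold was 9.66 (5.69 to 17.9), 6.54 (4.03 to 11.3), 7.20 (4.57 to 11.9) and 6.53 (4.09 to 10.9).

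The intervals of interzone Pthlh overlap across both ages and all genotypes. By marker number Pthlh fell from 24.9, 17.9, 13.02 and 14.3 CPM at 0 prehypertrophy markers to 1.52 CPM at 5 or more in the E13.5 library and to 0 UMIs in the other 3. Its share of prehypertrophic-like cells, 2.13%, 5.30%, 3.76% and 4.53%, came to 0.332%, 0.784%, 0.539% and 0.682% at 2000 UMIs per cell, against 0.540%, 0.273%, 2.12% and 0.343% in erythroid-like and 0.242%, 0%, 0.0594% and 0.166% in muscle-like cells. It is thus above muscle-like cells in every library and below erythroid-like cells in 2 of 4, on few cells in each comparison class. Interzone-like cells held a Pthlh UMI in 11.1%, 11.2%, 9.64% and 11.4% of cells, at medians of 6160, 6200, 6103 and 6526 UMIs. Muscle-like cells held one in 1.22%, 0%, 0.545% and 1.10%.

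Pth1r (ENSMUSG00000032492, chr9:110722085-110747145, minus strand), the receptor that receives PTHrP, is highest in the chondrocyte class in which the ligand is lowest. Prehypertrophic-like cells carried 397, 154, 258 and 267 CPM, matrix-rich cells 119.7, 46.8, 53.1 and 64.6 CPM, immature cells 83.0, 38.4, 40.4 and 45.9 CPM and interzone-like cells 49.5, 30.6, 30.5 and 31.5 CPM. Prehypertrophic-like cells were highest and apart from the next class in every library, and interzone-like cells lowest of 8. Perichondrial-like cells came next at E14.5, at 97.1, 113 and 70.4 CPM, and did not differ from matrix-rich cells at E13.5 (104 CPM) or in the DCKO library. Prehypertrophic-like over matrix-rich cells gave 3.31, 3.28, 4.87 and 4.13-fold. The receptor thus climbs along the same classes in which Pthlh drops.

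Within the prehypertrophic-like class Pth1r goes with Ihh from cell to cell. Cells with an Ihh UMI had 422, 207, 332 and 347 CPM of Pth1r, and cells without one 160.0, 63.3, 98.1 and 96.3 CPM. The difference is larger than counting error in all 4 libraries. Pthlh ran the other way at E14.5, with 0.877, 0.876 and 1.61 CPM in cells with Ihh and 7.42, 6.11 and 6.05 CPM in those without, and at E13.5 it rested on 12 and 2 UMIs. Cells with an Ihh UMI were deeper (median 11743, 20502, 19673.5 and 17375.5 UMIs against 9184, 16331.5, 14880 and 14061). CPM divides by depth, but deeper cells also show more markers, and the part of depth in these differences was not tested. Pth1r also rises with marker number, from 48.2, 39.5, 40.6 and 45.4 CPM at 0 markers to 548, 280.1, 560.0 and 589 CPM at 5 or more.

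Ptch1 (ENSMUSG00000021466, chr13:63508328-63573598, minus strand), receptor and target of hedgehog at once, is spread more widely than its ligand. It stood at 349, 179, 176 and 99.6 CPM in prehypertrophic-like, 295, 117, 118 and 92.4 CPM in matrix-rich and 218, 120.5, 111 and 95.1 CPM in immature cells, and at 97.5, 74.5, 84.4 and 79.1 CPM in interzone-like cells. Perichondrial-like cells carried 283, 188, 197 and 129.7 CPM, 4.09, 3.45, 3.90 and 2.98-fold more than fibroblast-like cells at 69.3, 54.4, 50.6 and 43.5 CPM. Prehypertrophic-like cells were highest at E13.5. In the E14.5 control and the Prx1Cre;Glut1f/f;Glut3f/+ library perichondrial-like cells were highest without standing apart from them, and in the DCKO library perichondrial-like cells stood above all other classes compared.

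The step in Ptch1 from matrix-rich to prehypertrophic-like cells is not beyond counting error in the DCKO library. That ratio was 1.18 (1.12 to 1.25), 1.54 (1.43 to 1.65) and 1.49 (1.41 to 1.58) in the other libraries and 1.08 (0.995 to 1.17) in DCKO. By marker number the DCKO library parts from its control step by step. At 0, 1, 2, 3, 4 and 5 or more markers Ptch1 was 100.5, 116, 149, 176, 194 and 195 CPM in the E14.5 control and 82.9, 92.7, 107, 109.9, 102.5 and 60.0 CPM in DCKO. The control climbs to a plateau, whereas DCKO climbs to 3 markers and is lowest at 5 or more, where its 49 cells have an interval of 45.6 to 77.6 CPM and the control's 26 cells one of 159 to 238 CPM. In the Prx1Cre;Glut1f/f;Glut3f/+ library Ptch1 reached 200.1 CPM at 4 markers and 163 CPM at 5 or more.

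**Figure D2:**
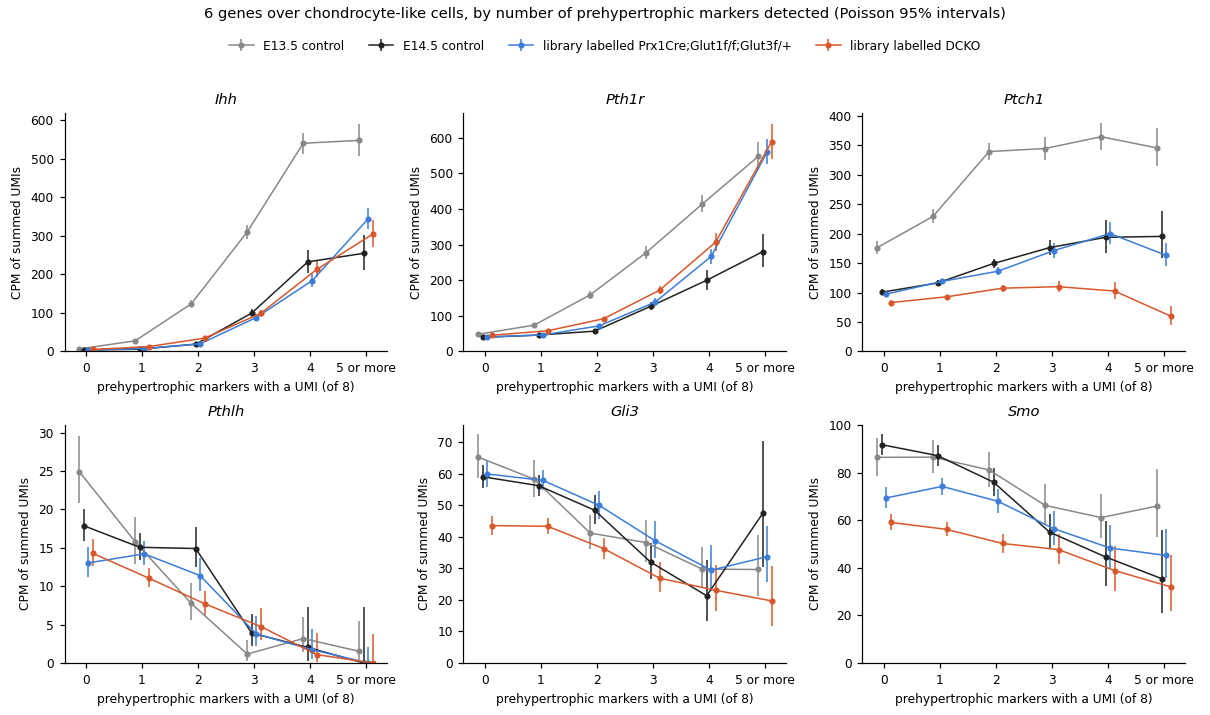
Levels in CPM of 6 of the genes in chondrocytes grouped by the number of prehypertrophy markers detected, from 0 to 5 or more, with 1 line per library and bars for 95% counting intervals. Ihh and Pth1r climb in every library, Pthlh drops, and Ptch1 in the DCKO library drops to 60.0 CPM in the last group.

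The same contrast appears inside the prehypertrophic-like class. Cells with an Ihh UMI had 353, 199 and 183 CPM of Ptch1 in the first 3 libraries and cells without one 310.5, 146 and 162 CPM, with intervals apart in the E14.5 control and overlapping in the other 2. In DCKO the order turned, with 87.0 CPM (79.0 to 95.6) in cells with Ihh and 127 CPM (113 to 142) in cells without. Ptch1 was therefore lower in the Ihh-bearing cells of that library alone among the 4. Gli1, by comparison, was lower in cells with Ihh in all 4 libraries, at 17.8, 15.2, 13.3 and 8.06 CPM against 28.2, 23.7, 22.1 and 20.3 CPM, with intervals apart in both mutant libraries.

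Smo (ENSMUSG00000001761, chr6:29735503-29761365, plus strand), the signal transducer below Ptch1, is lowest in the Ihh-rich class. It ranged over the 8 mesenchymal classes from 61.9 to 103 CPM at E13.5, from 50.1 to 96.2 CPM in the E14.5 control, from 52.0 to 79.7 CPM in Prx1Cre;Glut1f/f;Glut3f/+ and from 42.0 to 86.2 CPM in DCKO. Prehypertrophic-like cells were lowest in every library and apart from the next class, and no other neighbours in the order stood apart. Immature over prehypertrophic-like cells gave 1.43, 1.81, 1.38 and 1.67-fold.

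The 3 Gli genes peak outside the Ihh-rich class. Gli1 (ENSMUSG00000025407, chr10:127329882-127341974, minus strand), the target gene used most as a readout of the pathway, was highest in perichondrial-like cells, at 47.3, 50.4, 55.4 and 48.1 CPM, against 36.3, 28.7, 24.5 and 22.7 CPM in immature and 18.8, 18.4, 16.1 and 12.0 CPM in prehypertrophic-like cells. Perichondrial-like over prehypertrophic-like cells the fold was 2.52 (1.95 to 3.26), 2.74 (1.94 to 3.85), 3.44 (2.58 to 4.56) and 4.02 (2.72 to 5.86). At E13.5 the perichondrial-like interval overlapped that of immature cells, and in the other libraries it stood apart from the next class, fibroblast-like cells at 29.6, 32.8 and 23.7 CPM.

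Gli2 (ENSMUSG00000048402, chr1:118834132-119053619, minus strand) and Gli3 (ENSMUSG00000021318, chr13:15463235-15730026, plus strand), the main activator and the main repressor, share an order over the chondrocyte and interzone classes. Gli3 stood at 119, 119, 113 and 77.2 CPM in interzone-like, 58.9, 62.3, 59.7 and 49.7 CPM in immature, 48.1, 54.8, 56.0 and 40.0 CPM in matrix-rich and 33.5, 31.6, 35.4 and 23.9 CPM in prehypertrophic-like cells. Gli2 ran from 35.3, 24.3, 26.7 and 16.6 CPM in interzone-like to 10.1, 8.82, 8.29 and 5.63 CPM in prehypertrophic-like cells. Both were highest in interzone-like and lowest in prehypertrophic-like cells in all 4 libraries, by 3.55, 3.77, 3.20 and 3.23-fold for Gli3 and 3.48, 2.76, 3.23 and 2.95-fold for Gli2. Gli3 of interzone-like cells stood apart from the next class everywhere, and Gli2 did so at E13.5 alone.

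Hhip (ENSMUSG00000064325, chr8:79965851-80058006, minus strand), the secreted and membrane-bound ligand trap, is the sparsest member, with 444, 190, 215 and 86 UMIs in all kept cells. It stood at 5.98, 8.40, 5.36 and 3.05 CPM in fibroblast-like, 5.21, 5.06, 4.40 and 1.10 CPM in immature, 5.18, 3.35, 2.47 and 2.13 CPM in interzone-like and 0.877, 0.526, 0.854 and 0.565 CPM in matrix-rich cells. No neighbours in its order stood apart in any library, while distant classes differ: fibroblast-like over matrix-rich cells gave 6.82 (3.20 to 16.7), 16.0 (8.58 to 29.99), 6.28 (3.67 to 10.7) and 5.41-fold (2.12 to 12.2). The share of matrix-rich cells with an Hhip UMI, 0.679%, 0.421%, 0.688% and 0.549%, is below that of muscle-like cells, 3.30%, 1.28% and 1.09%, in the first 3 libraries, and 0 of 91 muscle-like cells held one in DCKO.

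Hhip is higher in Pthlh-bearing cells of the immature and interzone-like classes, and not beyond counting error in those of the matrix-rich class. Immature chondrocytes with a Pthlh UMI had 24.3, 20.3, 8.77 and 4.94 CPM of Hhip and those without one 2.67, 2.38, 3.95 and 0.741 CPM. In the 2 control libraries the intervals are far apart (16.1 to 35.0 against 1.69 to 4.00, and 11.4 to 33.5 against 1.14 to 4.37), while in the mutant libraries 6 and 5 Hhip UMIs in cells with Pthlh carry the value and the intervals of the Prx1Cre;Glut1f/f;Glut3f/+ library overlap. Interzone-like cells show it too, at 10.8, 9.93, 9.42 and 6.33 CPM with Pthlh and 4.34, 2.27, 1.27 and 1.37 CPM without, with overlapping intervals in DCKO. In matrix-rich cells Hhip stood at 1.27, 0.882, 0.926 and 0.452 CPM with Pthlh and 0.840, 0.480, 0.845 and 0.576 CPM without, and all intervals overlap.

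Ptch1 and Gli1 were also compared between interzone-like cells with and without a Pthlh UMI. Ptch1 stood at 126, 131, 141 and 112 CPM in them and at 93.2, 65.2, 74.8 and 73.3 CPM in the rest, and Gli1 at 27.1, 32.1, 33.0 and 24.1 CPM against 19.0, 12.1, 14.4 and 13.47 CPM. The Ptch1 intervals do not overlap in any library, and those of Gli1 overlap at E13.5 and in DCKO. Gli3 stood at 126, 102, 91.6 and 74.7 CPM against 118, 122, 117 and 77.6 CPM, lower with intervals apart in the Prx1Cre;Glut1f/f;Glut3f/+ library and overlapping in the others. In matrix-rich cells Ptch1 was 249 (215 to 286), 140.2, 141 and 111 CPM with Pthlh and 299.9 (288 to 312), 114, 115 and 90.5 CPM without, so it was lower at E13.5 and higher in the E14.5 libraries, with intervals apart in each. In immature cells it was 223, 151.5, 146 and 125.5 CPM against 218, 115, 108 and 92.2 CPM, and the intervals overlap in both controls. The interzone-like cells with Pthlh were deeper, with medians of 7394, 8573, 9799 and 7998.5 UMIs against 6050.5, 5957, 5874 and 6379.5.

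The age comparison asks how the loop differs between E13.5 and E14.5 controls. In the gated chondrocyte classes Ihh, Ptch1 and Pth1r were all at least 1.5-fold lower at E14.5, and Gli3 and Smo did not reach 1.5-fold, save Gli3 of prehypertrophic-like cells with clusters (log2 -0.62). Pthlh did not reach it in matrix-rich and immature cells, and in prehypertrophic-like cells it fell under the count minimum with 14 and 18 UMIs. Prehypertrophic-like cells had 493 CPM of Ihh at E13.5 and 140.3 at E14.5, a log2 ratio of -1.81 (-1.93 to -1.70), or 3.51-fold lower. In the same cells Pth1r was 2.58-fold lower (2.39 to 2.79) and Ptch1 1.95-fold lower (1.81 to 2.10), while Gli3 had a log2 ratio of -0.08 (-0.38 to 0.21). The gate markers of these cells also summed to less at E14.5, as given above.

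At 1.5-fold among genes with at least 20 UMIs in either library, 3 of 7 members passed in prehypertrophic-like cells, all lower, beside 22.9% of all genes. The median gene there had a log2 ratio of -0.14, so that relative to it Ihh was at -1.68, Pth1r at -1.23 and Ptch1 at -0.83. With cells named by clustering instead of gates Ihh was at -0.82 and Pth1r at -0.64, still lower. Clusters with this name held 741 and 888 cells at E13.5 and 266 cells at E14.5, against 517 and 283 gated cells.

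In matrix-rich cells Ihh was 11.3-fold lower (9.96 to 12.9), at 92.7 and 8.19 CPM, Pth1r 2.56-fold and Ptch1 2.53-fold lower. Here 4 of 9 members passed beside 23.1% of all genes, the last being Hhip with 8 and 21 UMIs and a log2 interval of -1.97 to 0.65 that spans 0; mean single-cell CPM (-0.41) and TMM scaling end that call. The all-gene median was -0.11, and relative to it Ihh was at -3.39, Pth1r at -1.25 and Ptch1 at -1.23. Clusters reverse the first 2 of these, with Ihh at 1.29 and Pth1r at 0.11, while Ptch1 keeps its direction at -0.72. The matrix-rich difference of Ihh and Pth1r thus depends on which cells are counted as matrix-rich, and the cause was not tested. Muscle-like cells also had less Ihh at E14.5, with 1 UMI (0.304 CPM) against 77 UMIs (8.57 CPM).

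Of the remaining classes, immature chondrocytes show the same 3 genes as prehypertrophic-like cells, and the others a different set. In immature chondrocytes 3 of 9 members passed beside 20.4% of all genes (median -0.11): Ptch1 at -0.86, Pth1r at -1.11 and Ihh at -3.40, from 146 UMIs to 7. This class can hold cells with prehypertrophy markers, and their part in these ratios was not tested. Among all chondrocytes with 0 such markers, Ihh stood at 6.37 CPM at E13.5 and 3.52 CPM at E14.5. Pth1r there stood at 48.2 and 39.5 CPM, and Ptch1 at 176 and 100.5 CPM. In interzone-like cells 3 of 9 passed beside 20.4% (median -0.05), with Ihh at -1.46 on 10 UMIs, Pth1r at -0.70 and Hhip at -0.63. None of these 3 holds under every alternative: Ihh is at -0.37 without the top 8% of Scrublet scores, Pth1r at -0.53 with mean single-cell CPM, and Hhip at -0.33 with clusters. In perichondrial-like cells 2 of 6 passed beside 27.7% (median -0.19), Ptch1 at -0.59 (-0.40 relative to the median) and Gli2 at -0.79 on 13 UMIs with an interval that spans 0. TMM scaling ends the Ptch1 call (-0.48) and stricter gates that of Gli2 (-0.41). Pthlh was higher at E14.5 without reaching 1.5-fold in immature (log2 0.52) and matrix-rich cells (log2 0.54). It does reach it with clusters in the first (0.78) and under 5 alternatives in the second, up to 1.42 with gates on thinned counts.

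**Figure D3:**
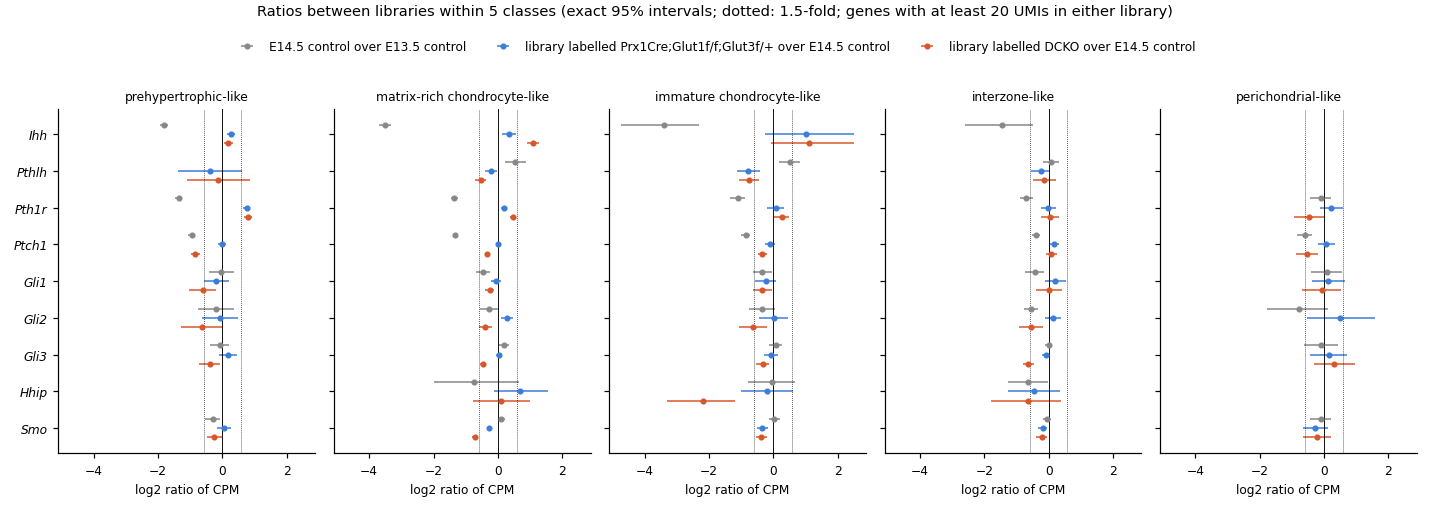
Log2 ratios of the 9 genes in 5 cell classes for E14.5 over E13.5 control and for each library labelled mutant over the E14.5 control, for genes with at least 20 UMIs in either library, with bars for 95% counting intervals and dotted lines at 1.5-fold. In prehypertrophic-like cells Pth1r lies above 0 in both mutant libraries (0.75 and 0.80) and Ptch1 below 0 in DCKO (-0.85).

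Both mutant libraries are set against the same E14.5 control library, so their values are not independent of each other. In prehypertrophic-like cells the receptor for PTHrP was higher in both, Ihh was within 1.5-fold of control in both, and Ptch1 was lower in DCKO. Pth1r stood at 154 CPM in the control, 258 CPM in the Prx1Cre;Glut1f/f;Glut3f/+ library and 267 CPM in DCKO, 1.68-fold (1.55 to 1.82) and 1.74-fold (1.60 to 1.89) above control. At 3 prehypertrophy markers the 3 libraries had 127 (116 to 138), 138 (128 to 149.7) and 172 CPM (161 to 184), at 4 markers 199.8, 267 and 307 CPM, and at 5 or more 280.1, 560.0 and 589 CPM. The bins of 4 and of 5 or more hold 47 and 26 control cells, and at 3 markers the Prx1Cre;Glut1f/f;Glut3f/+ library overlaps the control. Relative to the all-gene medians of -0.05 and -0.16 these are log2 0.80 and 0.96. With clusters the log2 ratios are 1.77 and 1.48, and with gates on thinned counts 1.26 and 1.31. The gate markers sum to more than in the control in the Prx1Cre;Glut1f/f;Glut3f/+ library and to about the same in DCKO, as given above.

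Ihh in these cells was 140.3, 168 and 159 CPM in the E14.5 libraries, log2 0.26 (0.14 to 0.39) and 0.18 (0.05 to 0.31) over control, under 1.5-fold. With clusters these are 1.23 and 0.85, past 1.5-fold. Ptch1 was 179, 176 and 99.6 CPM, so it matched the control in the Prx1Cre;Glut1f/f;Glut3f/+ library and was 1.80-fold lower (1.63 to 1.98) in DCKO, log2 -0.69 relative to the all-gene median. Gates on thinned counts put that Ptch1 log2 ratio at -1.65. Gli1 at 18.4, 16.1 and 12.0 CPM and Gli2 at 8.82, 8.29 and 5.63 CPM were also lower in DCKO, log2 -0.62 (-1.05 to -0.19) and -0.65 (-1.28 to -0.02). TMM scaling ends both calls, with Gli1 at -0.45 and Gli2 at -0.48, as does the total without mitochondrial, ribosomal protein and hemoglobin genes (-0.52 and -0.55). Of 8 members 1 passed 1.5-fold in the Prx1Cre;Glut1f/f;Glut3f/+ library beside 13.2% of all genes, and 4 of 8 in DCKO beside 22.7%. Between the mutants, DCKO over Prx1Cre;Glut1f/f;Glut3f/+, Ptch1 was at log2 -0.82 (-0.95 to -0.69) and was the 1 member of 8 that passed, beside 11.7% of all genes (median -0.11). Gli3 was at -0.57 there and passes under 4 alternatives. Ptch1 was also lower in Xist-bearing cells at E13.5, as given above, by a smaller log2 of -0.26, and both mutant libraries are female.

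Matrix-rich cells show more Ihh in DCKO. It stood at 8.19 CPM in the control, 10.5 in the Prx1Cre;Glut1f/f;Glut3f/+ library and 17.6 in DCKO, 2.15-fold above control in DCKO (1.89 to 2.45) and log2 1.29 relative to the all-gene median of -0.18. The log2 ratio of 1.10 over control shrinks to 0.608 with stricter gates, 0.716 with clusters and 0.741 with gates on thinned counts, still past 1.5-fold. By marker number Ihh of all chondrocytes in DCKO and control was 5.09 and 3.52 CPM at 0 prehypertrophy markers, 12.5 and 5.82 at 1, 34.6 and 18.7 at 2, 98.5 and 99.4 at 3, 213 and 232 at 4, and 304 and 254.5 at 5 or more. The intervals are apart at 1 and 2 markers and overlap in the other bins. Muscle-like cells held 0.304, 6.19 and 5.21 CPM of Ihh (1, 31 and 5 UMIs) in the E14.5 libraries. The source of that Ihh, and its part in the matrix-rich difference, were not tested. Smo moved the other way, at 86.5, 71.3 and 52.6 CPM, 1.64-fold lower in DCKO (1.56 to 1.73), or log2 -0.53 relative to the median. Smo no longer reaches 1.5-fold with TMM scaling (log2 -0.55).

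In that class 1 of 9 members passed in the Prx1Cre;Glut1f/f;Glut3f/+ library beside 10.2% of all genes (median -0.10), namely Hhip at log2 0.70 on 34 and 21 UMIs with an interval that spans 0, and at 0.21 with mean single-cell CPM. In DCKO 2 of 9 passed beside 19.2%, Ihh and Smo. DCKO over the other mutant gave 3 of 9 beside 10.7% (median -0.08), with Ihh at log2 0.75 (0.58 to 0.92), Gli2 at -0.68 (-0.87 to -0.49) and Hhip at -0.60 on 27 and 34 UMIs with an interval that spans 0. Each of these ends with gates on thinned counts, Ihh at 0.43, Gli2 at -0.58 and Hhip at -0.16, and Ihh also with clusters (0.13) and stricter gates (0.44).

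Immature chondrocytes hold less Hhip in DCKO. It stood at 5.06 CPM (25 UMIs) in the control, 4.40 CPM (32 UMIs) in the Prx1Cre;Glut1f/f;Glut3f/+ library and 1.10 CPM (13 UMIs) in DCKO, 4.59-fold below control. Its log2 ratio was -2.20 (-3.29 to -1.18) over control and -1.998 (-3.05 to -1.03) over the other mutant, and these shrink to -0.78 and -0.42 with stricter gates. Hhip was also lowest in DCKO over all kept cells, at 2.40, 2.32 and 0.976 CPM. Gli2 in immature cells was 14.8, 14.9 and 9.49 CPM, log2 -0.64 over control and -0.65 over the other mutant. TMM scaling (-0.45) and 4 further alternatives end the first call, and clusters (-0.11) the second.

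Pthlh of immature cells was 28.5 CPM in the control and 16.6 and 17.0 CPM in the mutants, log2 -0.78 (-1.14 to -0.42) and -0.75 (-1.07 to -0.43). With clusters these turn to 0.17 and 1.29, and with gates on thinned counts to -0.38 and -0.46, so the lower level depends on the gates, and the cause was not tested. Ihh of immature cells, at 7, 21 and 36 UMIs, passed 1.5-fold with intervals that span 0 (log2 1.03 and 1.11) and reverses with clusters and with mean single-cell CPM. In the Prx1Cre;Glut1f/f;Glut3f/+ library 2 of 9 members passed beside 11.2% of all genes (median -0.12), in DCKO 4 of 9 beside 16.1% (median -0.16), and in DCKO over the other mutant 2 of 9, Gli2 and Hhip, beside 8.52% (median -0.04).

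Interzone-like cells, the class that forms the joint, hold Pthlh and Ptch1 within 1.5-fold of control, save Pthlh of the Prx1Cre;Glut1f/f;Glut3f/+ library with stricter gates (log2 -0.68). Gli3 was 119 CPM in the control, 113 in the Prx1Cre;Glut1f/f;Glut3f/+ library and 77.2 in DCKO, log2 -0.63 or 1.54-fold lower in DCKO, and -0.48 relative to the all-gene median of -0.15. This falls under 1.5-fold with clusters (-0.33), TMM scaling (-0.51) and a total without mitochondrial, ribosomal protein and hemoglobin genes (-0.53). In the E14.5 libraries 591 of 1138, 718 of 1286 and 436 of 612 interzone-like cells held only 1 Gdf5 UMI. The DCKO class thus sits closest to its gate, and the part of this in the Gli3 ratio was not tested. Hhip was at log2 -0.66 on 11 UMIs, with an interval that spans 0, and at -0.53 with TMM scaling. In the Prx1Cre;Glut1f/f;Glut3f/+ library 0 of 8 members passed beside 10.0% of all genes (median -0.13), in DCKO 2 of 8 beside 17.9%, and in DCKO over the other mutant 1 of 8, Gli2 at -0.68 (-0.52 with clusters), beside 10.8% (median -0.02). Hhip, at -0.21 there, passes under 5 alternatives.

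In perichondrial-like cells no member passed against the control, 0 of 6 beside 14.4% (median -0.05) and 0 of 5 beside 14.1% (median -0.05). With stricter gates Pth1r of the Prx1Cre;Glut1f/f;Glut3f/+ library (log2 1.08) and Ptch1 of DCKO (-0.77) do pass, as do Gli2 of the former with TMM scaling (0.59) and Pth1r of the latter with gates on thinned counts (-0.90). DCKO over the other mutant gave 3 of 6 beside 15.4% (median 0.02): Pth1r at 70.4 against 113 CPM, Ptch1 at 129.7 against 197 CPM, and Gli2 on 9 and 25 UMIs with an interval that spans 0. Mean single-cell CPM ends the calls of Pth1r (log2 -0.14) and Ptch1 (-0.41), and stricter gates that of Gli2 (-0.21). Gli1 in these cells was 50.4, 55.4 and 48.1 CPM at E14.5, without a difference beyond counting error.

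Other genes of the pathways were followed in 3 lists: 29 genes for hedgehog ligands, receptors and transduction, 14 hedgehog target genes other than the members, and 23 genes of the PTHrP pathway. Most, but not all, measured hedgehog targets were lower in DCKO in the class with the lowest Ptch1 ratio. In prehypertrophic-like cells 6 of 9 measured targets were at least 1.5-fold lower and 0 higher, with a median log2 of -0.83, beside 16.0% lower and 6.76% higher among all genes and a median of -0.16. Bmp4 stood at 10.4 against 24.1 CPM, Bmp2 at 30.6 against 63.6 CPM and the forkhead factor Foxc1 at 39.4 against 73.7 CPM. Over the other mutant 5 of 9 were lower (median -0.59, beside 8.89% of all genes and -0.11), and the Prx1Cre;Glut1f/f;Glut3f/+ library itself had 0 lower and 1 higher of 9 against the control (median -0.23, beside 6.43% and 6.73% of all genes and -0.05).

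The other classes of DCKO had fewer. Lower targets numbered 1 of 11 in matrix-rich cells, Igfbp5 at 423.5 against 847 CPM, 2 of 10 in immature, 0 of 10 in interzone-like and 1 of 9 in perichondrial-like cells, beside 14.2%, 11.6%, 14.4% and 8.35% lower among all genes. Ptch1 itself was lower in matrix-rich (log2 -0.34), immature (-0.34) and perichondrial-like cells (-0.53), under 1.5-fold in each, and with clusters the immature Ptch1 ratio is 1.22, higher. With age, 6 of 12 targets were lower and 1 higher in matrix-rich cells (median -0.71, beside 12.7% and 10.4% of all genes and -0.11). Hsd11b2 fell from 3.18 to 0.0751 CPM (29 and 3 UMIs), Foxc2 from 18.1 to 5.18 CPM and Mycn from 8.33 to 2.91 CPM. Igfbp5 was higher, 847 against 268 CPM. In prehypertrophic-like cells 3 of 10 were lower and 1 higher with age (median -0.19, beside 15.9% and 6.96% of all genes and -0.14).

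The transduction list of DCKO was counted in the same 5 classes. Of its measured genes 7 of 23 were lower in prehypertrophic-like, 4 of 28 in matrix-rich, 7 of 26 in immature, 6 of 25 in interzone-like and 1 of 14 in perichondrial-like cells, with 0, 1, 2, 0 and 0 higher. The shares of all genes that were lower were 16.0%, 14.2%, 11.6%, 14.4% and 8.35%. The list medians were -0.29, -0.34, -0.33, -0.13 and -0.03 beside -0.16, -0.18, -0.16, -0.15 and -0.05 for all genes. In interzone-like and perichondrial-like cells the median of the list is thus not the lower one. Gas1, a co-receptor for hedgehog ligands, stood at 350.2 against 982 CPM in interzone-like cells and at 116 against 257 CPM in immature cells, and Cdon, another, at 64.0 against 131 CPM in interzone-like cells. Disp1, which releases the ligand from the cell that makes it, was at 20.7 against 40.1 CPM there. The study reported Gas1, Cdon and Disp1 among the genes enriched in interzone cells over its other clusters. How far these ratios reflect the make-up of the interzone-like class was not tested. The list holds 7 of the members themselves, and the counts of lower genes include Ptch1, Gli1 and Gli2 in prehypertrophic-like, Smo in matrix-rich, Gli2 and Hhip in immature, and Gli3 and Hhip in interzone-like cells.

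In the PTHrP list 3 of 19 genes were higher and 2 lower in prehypertrophic-like cells of DCKO, with a median of -0.13, beside 6.76% higher, 16.0% lower and -0.16 for all genes. Besides Pth1r the higher ones were Crem, a cAMP-responsive factor, at 10.2 against 4.78 CPM, and Rgs2 at 6.73 against 3.86 CPM, and the lower ones were the cAMP phosphodiesterase Pde4d at 6.87 against 16.7 CPM and the kinase Sik2 at 8.66 against 14.51 CPM. The Prx1Cre;Glut1f/f;Glut3f/+ library had 2 of 19 higher and 2 lower in these cells, beside 6.73% and 6.43% of all genes. Rgs2 was also higher there, at 6.96 CPM, and Pde4d and Sik2 also lower, at 9.73 and 7.325 CPM. In matrix-rich cells of DCKO Rgs2 went the other way, at 10.6 against 20.1 CPM, with 3 of 20 lower and 0 higher beside 14.2% and 5.04% of all genes. With age 6 of 18 were lower and 0 higher in prehypertrophic-like cells (median -0.24, beside 15.9% and 6.96% of all genes and -0.14). The lower ones include the member Pth1r. They also include Mef2c, itself a gate marker, at 300.3 against 707 CPM, and Hdac5 at 10.1 against 17.6 CPM.

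Likeness of pattern was measured by Pearson's r over 46 combinations of class and library with at least 50 cells, among 9521 genes, as a description. Combinations from 1 library share depth and dissection. Nearest to Ihh were Notum (r = 0.915), Calml3 (0.906), Panx3 (0.891), Dhx58os (0.884) and Smim5 (0.867), of which Panx3 is a gate marker. Pthlh had Lrig3 (0.845), Wfdc2, Pianp, Trps1 and Clmn as nearest genes, and Pth1r had Scd2 (0.867), Gpc3, Alg2, Rab28 and Fads2. Ptch1 was nearest to Bcl2 (0.883), Id2, Dlx5, Runx2 and Unc5c, Gli1 to Efnb1 (0.893), Bnc2, Flrt3, Scube1 and Igsf3, and Hhip to Gm16152 (0.791), Ttc8, Sbk1, Cxcl14 and Gnb5. With a pseudocount of 5 in place of 1, the 5 nearest genes shared 5 with these lists for Ihh and Ptch1, 4 for Pth1r and Hhip, 3 for Pthlh and 1 for Gli1, so the neighbours of Gli1 depend on this choice. Bcl2 is on the hedgehog target list, Gpc3 and Scube1 are on the transduction list, and Dlx5 and Runx2 are perichondrial gate markers.

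Among the members themselves the closest pair was Gli2 and Gli3 (r = 0.903), followed by Pth1r and Ptch1 (0.831) and Gli2 and Smo (0.829). Ihh ran with Pth1r (0.582) and Ptch1 (0.499), and not with Pthlh (-0.040) or Gli1 (0.076). The pair of ligands therefore has no common direction over these units, although along the chondrocyte series alone they oppose each other.

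Promoters of the members were read for binding letters of 2 factor families. RefSeq promoter windows of GRCm38.p6, from 250 bases before to 50 after the start, were at hand for 8 members in 10 windows. Gli1 has no entry. The Ptch1 window, chr13:63565686-63565985, lies inside the gene span given above, so the 5′ end of that span was not read. The GLI consensus GACCACCCA, read on both strands, is in 0 of the 10 windows and in 0.253% of 32851 windows of all genes, and with 1 mismatch in 0 of 10 and 6.74%. The RUNX core TGTGGT, searched afterwards, is in 1 of 10 and in 16.8% of all. The match lies in Gli3 within the stretch chr13:15463593-15463618 on the plus strand, shown because it is the one match found, with the 6 matching letters, the core's reverse complement, in capitals.
Gli3: gcagagtctgACCACAtctgtgaaaa
A match is a description of letters and no match says only that they are not in the window.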

How the data were processed

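The data are 4 single-cell libraries of mouse hindlimb knee regions, 1 per condition: controls at E13.5 and E14.5, and E14.5 libraries labelled Prx1cre;Glut1f/f;Glut3f/+ and DCKO. Per the file headers and the submitters' processing notes, the values are raw UMI counts per gene and cell that the authors deposited after Cell Ranger had called cells and counted reads on mm10; the submitters' own clustering used Seurat 3 and was not used here.

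Kept were cells whose gene number lay between 200 and 6000 and whose mitochondrial UMIs made up no more than 10%, 12446, 9305, 11264 and 11305 per library. Total depth was 100344565, 84188147, 97110697 and 91574038 UMIs. Each cell was put into a class by the number of detected marker genes. Chondrocytes needed at least 5 of 10 markers and a Col2a1 level above a set minimum. Prehypertrophic-like cells also needed at least 3 of 8 prehypertrophy markers and at least 5 of 8 matrix genes. The marker lists were written before the cells were gated, but with earlier results of these data known. The thresholds and the order of the gates were set after seeing the data: glial, epidermal and mural gates were moved behind the chondrocyte gates because glial-gated cells carried Col2a1 and Ihh. UMIs were summed per class and library and scaled to CPM, with exact Poisson 95% intervals. Ratios have exact conditional binomial intervals and shares Clopper-Pearson intervals. These cover counting error alone, since no condition has a second library, and no test was made. A gene was counted as different at 1.5-fold or more with at least 20 UMIs in either group, with a floor of 3 counts for a 0.

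The 9 genes and 3 pathway lists were chosen with earlier results of these data known. Named were all 9 genes; of each list up to 3 genes with the largest rise and 3 with the largest fall among those at least 1.5-fold different; the 5 genes with the highest correlation to Ihh, Pthlh, Pth1r, Ptch1, Gli1 and Hhip; Slc2a1, Slc2a3, Xist and Y-linked genes. Lists were read beside all genes with the same count minimum. Correlations used log2(CPM + 1) over combinations of class and library with at least 50 cells, for genes of at least 20 CPM in any of them.

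Alternatives were stricter gates, Leiden clusters, the mean of single-cell CPM, cells with at least 1000 genes and at most 5% mitochondrial UMIs, TMM factors, and a total without mitochondrial, ribosomal protein and hemoglobin genes. After seeing the data, 2 were added: leaving out the top 8% of cells by Scrublet score, and gates on counts thinned to 4000 UMIs. Clusters were named in 3 ways (most frequent gate class, mean marker score, correlation of marker profiles), and the last was chosen on the names before any cluster value of the 9 genes was seen. The pairs of classes compared, and the RUNX core as a second promoter search, were also chosen after seeing data. The interval and calling code was tested on simulated data.

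Tools were Python 3.11.15, numpy 2.4.6, pandas 2.3.3, scipy 1.17.1, scanpy 1.11.5 (Scrublet), igraph 0.11.9, matplotlib 3.10.9, R 4.3.3 and edgeR 4.0.16 (TMM).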

Additional observations from a re-analysis of the deposited data

How the results depend on the processing

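Each of 159 log2 ratios (41 at 1.5-fold or more) was recomputed under 8 alternatives. No paired analysis was possible because each condition has 1 library. Of the 41, those still at 1.5-fold numbered 34 with stricter gates, 28 of 36 with clusters, 32 with gates on thinned counts, 31 with TMM, 35 with the reduced total, 31 with mean single-cell CPM, 40 with the narrower filter and 39 without the top 8% of Scrublet scores. Ratios under 1.5-fold as reported that reach it numbered 19, 26, 16, 3, 1, 6, 2 and 3 in the same order.

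Stricter gates moved 48 of 159 ratios beyond counting error and reversed 0. With age in prehypertrophic-like cells Ihh was at -1.345 and Pth1r at -1.091; in DCKO over control Ptch1 in those cells was at -1.269 and Ihh in matrix-rich cells at 0.608; Ihh of prehypertrophic-like over matrix-rich cells in the E14.5 control was at 3.8.

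Leiden clusters moved 65 of 138 and reversed 6, and 21 ratios had no value. The 6 were all at 1.5-fold or more as reported. This count leaves out immature Ptch1 of DCKO, under 1.5-fold as reported, whose direction also turned, as given above. The counts of reversed ratios in this section thus do not cover every ratio under 1.5-fold. Reversed were, in matrix-rich cells with age, Ihh at 1.293 and Pth1r at 0.11, and in immature cells Ihh at -1.582 and Pthlh at 0.174 in the Prx1Cre;Glut1f/f;Glut3f/+ library and -1.003 and 1.294 in DCKO. Moved were, with age, prehypertrophic-like Ihh (-0.819) and Pth1r (-0.635) and matrix-rich Ptch1 (-0.719); prehypertrophic-like Pth1r in the Prx1Cre;Glut1f/f;Glut3f/+ library (1.765) and DCKO (1.478); in DCKO prehypertrophic-like Ptch1 (-1.207), matrix-rich Ihh (0.716) and interzone-like Gli3 (-0.33, under 1.5-fold); and the Ihh class ratio (3.604). The cause was not tested.

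Gates on thinned counts moved 33 of 157 and reversed 0, and 2 had no value: Ihh with age at -1.604, prehypertrophic-like Pth1r at 1.262 and 1.305 in the mutants, Ptch1 at -1.654 and matrix-rich Ihh at 0.741 in DCKO, and the Ihh class ratio at 3.37.

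TMM moved 24 of 159 and reversed 0: with age prehypertrophic-like Ihh at -1.694 and Pth1r at -1.248 and matrix-rich Ptch1 at -1.188; in DCKO prehypertrophic-like Pth1r at 0.964 and Ptch1 at -0.679, and matrix-rich Smo at -0.549, under 1.5-fold. Without mitochondrial, ribosomal protein and hemoglobin genes in the total 4 moved, among them that Smo ratio at -0.637.

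The mean of single-cell CPM moved 11 and reversed 2, immature Ihh in the mutants (-1.654 and -0.575), and put the Ihh class ratio at 4.376. The narrower cell filter moved 3 and the top 8% of Scrublet scores left out moved 1. Leaving out doublets called by Scrublet gave no value, since it called at most 0.0215% of cells. Of hedgehog targets in DCKO prehypertrophic-like cells 6 were lower at a minimum of 20 UMIs, 6 at 100 and 8 at 1. No list count is given here under TMM scaling, clusters or other gates.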
